A study of Homo sapiens with 6 samples.

Results

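The 10 long non-coding host genes of small nucleolar RNAs (snoRNAs) described here are GAS5, SNHG1, SNHG3, SNHG5, SNHG6, SNHG7, SNHG8, SNHG12, ZFAS1 and EPB41L4A-AS1. They were chosen by name. All 10 are held under these symbols in all 6 files, among 23619 symbols. RNA of HG3 cells, a lymphoblastoid line from chronic lymphocytic leukemia, was sequenced as 1 library per pool. The control group holds pools 17, 18 and 28, and the group resistant to fludarabine, a purine nucleoside analogue, holds 3 pools with the same numbers. They belong to a transposon mutagenesis study, whose design text calls them pairs and asks how far transcription in resistant cells departs from that of the parental cells. All pools derive from 1 cell line, and the labels give no dose or time and do not say whether control pools also carried transposons. Because the samples are bulk RNA, fewer cells expressing a gene and less of its RNA per cell cannot be told apart.

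snoRNAs are short nuclear RNAs that guide chemical modification of ribosomal RNA. Box C/D snoRNAs guide ribose methylation and box H/ACA snoRNAs guide conversion of uridine to pseudouridine. Most human snoRNAs are cut from introns of a longer host transcript. In many non-coding hosts ribosomes can enter the spliced exons, which nonsense-mediated decay then removes. Many hosts belong, like ribosomal protein genes, to the class with a terminal oligopyrimidine (TOP) start, in which the first transcribed base is a C followed by a run of C and T. GAS5 was named for its accumulation in growth-arrested cells.

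The start regions of hosts with and without a TATA element are shown because they are a feature the list of names did not use. Of the listed hosts whose window lacks it, only SNHG1 is printed. Each window runs from 50 bases before to 50 bases after the RefSeq start on GRCh38.p14, read 5′ to 3′ on the transcribed strand. Capitals mark TATAA between 40 and 16 bases before the start, and a first base C followed by at least 4 pyrimidines. The windows are those of SNHG12 (chr1:28581824-28581923, minus strand), ZFAS1 (chr20:49278592-49278691, plus), SNHG5 (chr6:85678684-85678783, minus), SNHG7 (chr9:136728135-136728234, minus), SNHG8 (chr4:118278712-118278811, plus) and SNHG1 (chr11:62855836-62855935, minus).
SNHG12: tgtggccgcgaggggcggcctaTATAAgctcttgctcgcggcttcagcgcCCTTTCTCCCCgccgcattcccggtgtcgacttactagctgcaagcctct
ZFAS1: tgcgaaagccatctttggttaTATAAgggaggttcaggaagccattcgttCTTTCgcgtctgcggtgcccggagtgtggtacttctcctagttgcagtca
SNHG5: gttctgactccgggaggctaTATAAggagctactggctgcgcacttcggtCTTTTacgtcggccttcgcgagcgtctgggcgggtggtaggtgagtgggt
SNHG7: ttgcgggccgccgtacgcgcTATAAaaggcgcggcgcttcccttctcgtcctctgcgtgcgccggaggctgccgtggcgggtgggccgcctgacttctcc
SNHG8: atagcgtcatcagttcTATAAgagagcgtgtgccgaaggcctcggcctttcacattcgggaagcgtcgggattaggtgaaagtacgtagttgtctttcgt
SNHG1: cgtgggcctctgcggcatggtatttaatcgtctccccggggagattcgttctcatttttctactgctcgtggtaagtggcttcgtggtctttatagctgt

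Windows of 4 hosts outside the 10 genes are shown beside them, chosen after their values in resistant 18 were seen: SNHG16 (chr17:76557714-76557813, plus strand), DANCR (chr4:52712344-52712443, plus), SNHG4 (chr5:139274051-139274150, plus) and SNHG11 (chr20:38446604-38446703, plus). DANCR and SNHG4 were highest in resistant 18, at 2.03 and 1.86 times the mean of the other 5 libraries, SNHG16 was at 1.06 times and SNHG11 was lowest, at 0.468 times. SNHG4 has a pyrimidine start, and SNHG16, DANCR and SNHG11 have neither motif.
SNHG16: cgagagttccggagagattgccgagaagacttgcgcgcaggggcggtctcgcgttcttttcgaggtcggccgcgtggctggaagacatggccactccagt
DANCR: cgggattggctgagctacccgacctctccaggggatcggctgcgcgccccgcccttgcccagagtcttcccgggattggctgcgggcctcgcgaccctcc
SNHG4: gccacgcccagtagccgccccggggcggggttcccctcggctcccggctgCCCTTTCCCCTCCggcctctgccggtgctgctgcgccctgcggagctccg
SNHG11: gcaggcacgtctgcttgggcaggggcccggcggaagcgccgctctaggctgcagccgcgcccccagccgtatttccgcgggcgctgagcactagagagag

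Of the 9 listed hosts with a window in the RefSeq table, 5 held TATAA on the transcribed strand (SNHG5, SNHG7, SNHG8, SNHG12 and ZFAS1), and the count was also 5 with either strand searched. Of all 27305 promoter windows given by RefSeq, 4.22% held it on the transcribed strand and 5.02% on either strand. A first base C followed by at least 4 pyrimidines, searched on the transcribed strand only, was found for 3 of the 9 (SNHG5, SNHG12 and ZFAS1) and in 4.04% of all windows. Among the 8143 windows of tested genes, 2.49% held TATAA on the transcribed strand and 5.6% this pyrimidine start. Both searches were chosen after these windows had been seen, and they depend on the start position that RefSeq gives. In SNHG7 a run of C and T begins before that position and ends too soon after it to count. GAS5, SNHG1, SNHG3 and EPB41L4A-AS1 held neither motif in these windows. The GAS5 window (chr1:173868996-173869095, minus strand) lies wholly upstream of the start in GENCODE v29, at 173868882. It therefore cannot show whether either motif stands at that start. Resistant 18 divided by the mean of the other 5 libraries was 0.159 for SNHG12, 0.245 for ZFAS1, 0.373 for SNHG8, 0.418 for SNHG7 and 0.685 for SNHG5. Among hosts with neither motif in the window it was 0.231 for EPB41L4A-AS1, 0.337 for GAS5, 0.539 for SNHG1 and 1.45 for SNHG3. The ratios of listed hosts with and without TATAA in these windows thus overlapped, also with GAS5 left aside.

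Resistant 18 stood apart among the 6 libraries. Its weight in limma's array weights, which fall as a library departs from its group over all genes, was 0.162, and those of the other 5 were 1.03 to 1.93. For the 10 hosts, results that rest on it are given with and without it.

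In the control libraries, 9 of the 10 hosts were among the more abundant RNAs of these cells, on the scale of FPKM, fragments scaled to transcript length and to the mapped fragments of the library. GAS5 had 1094, 1026 and 786 FPKM in controls 17, 18 and 28, with a mean of 969 ± 162 (SD, n = 3), which ranked 282 among the 11307 genes tested. ZFAS1, the host of 3 box C/D snoRNAs, followed with 763 ± 45.3. Then came SNHG6 (547 ± 177), SNHG5 (475 ± 59.2), SNHG8 (370 ± 71.2), SNHG1 (252 ± 33.3), SNHG7 (161 ± 19.2), EPB41L4A-AS1 (73.1 ± 5.34) and SNHG12 (55.9 ± 4.77). Neighbours in this order whose ranges over the 3 controls overlapped were GAS5 and ZFAS1, SNHG6 and SNHG5, and SNHG5 and SNHG8. SNHG3 was far below the others, at 4.52 ± 1.17 FPKM. The control libraries gave nearly the same order, with a Spearman rho across the 10 genes of 0.988 to 1.0 between them.

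**Figure D1:**
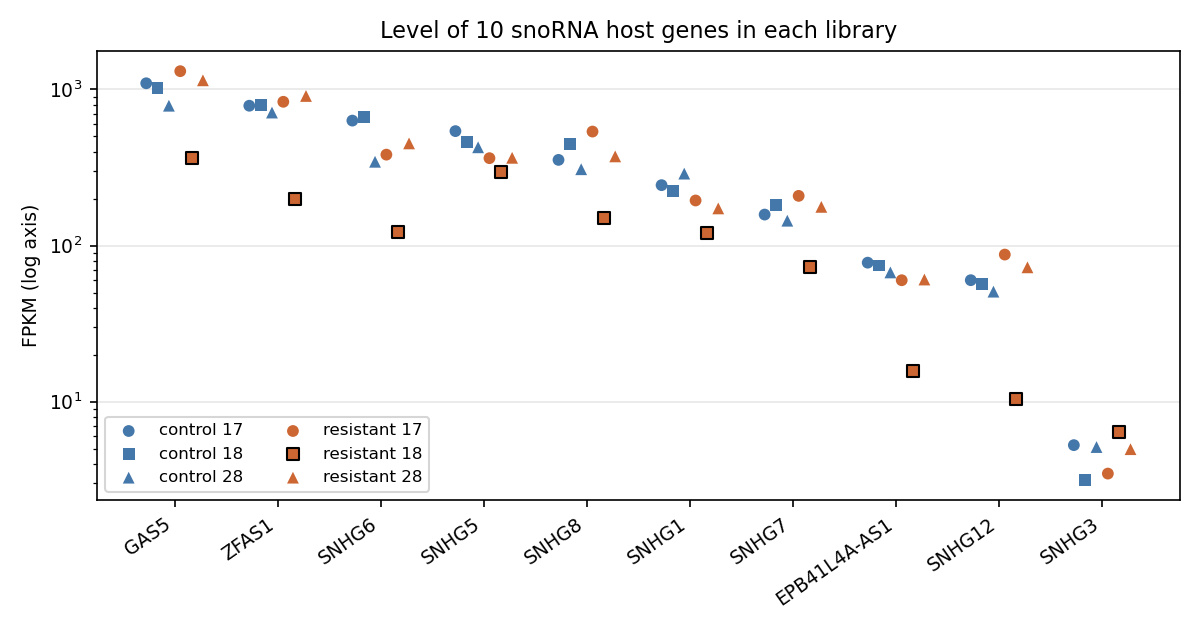
FPKM (log axis) of the 10 hosts in each library, ordered by the mean of the controls; blue is control, orange resistant, and the symbol gives the pool. Resistant 18, outlined squares, is the lowest library for 9 hosts and the highest for SNHG3.

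Over all 3 pools, no listed host passed limma's threshold between resistant and control libraries, an adjusted p of 0.05 over the 11307 genes with at least 1 FPKM in at least 3 libraries. Of these genes 4 passed, 0.0354%. Adjusted p ran from 0.313 to 0.903 over the 10 hosts, and 2 of them, SNHG1 and SNHG5, had an unadjusted p under 0.05 with lower values in resistant libraries, a rule that 7.14% of all genes tested met. None was higher at that p, against 5.99% of all genes. The median difference of the 10 on the log2(FPKM + 1) scale was -0.46, against 0.01 for all genes tested. That median rested on resistant 18: without this library it was 0.06, and without both libraries of pool 18 it was 0.03.

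SNHG1, SNHG5 and EPB41L4A-AS1 were lower in the resistant library of every pool, and their groups did not overlap. SNHG1, the host of a row of box C/D snoRNAs beside SLC3A2 on chromosome 11, read 244, 224 and 289 FPKM for controls 17, 18 and 28, and 194, 121 and 173 for resistant 17, 18 and 28. The resistant mean was 1.55-fold lower, a log2 difference of -0.65 (SE 0.23, limma adjusted p = 0.313). Without resistant 18 it was -0.45, and resistant 18 held the lowest value.
SNHG5, the host of SNORD50A and SNORD50B on chromosome 6, read 540, 458 and 426 FPKM across controls, then 363, 295 and 365 across resistant libraries. The means differed 1.39-fold, and the log2 difference was -0.48 (SE 0.20, limma adjusted p = 0.378). Resistant 17 and 28 lay close together, with resistant 18 somewhat below them.
EPB41L4A-AS1, the host of the box H/ACA snoRNA SNORA13 on chromosome 5, read 77.7, 74.5 and 67.2 FPKM across controls, then 59.9, 15.7 and 60.6 across resistant libraries. The log2 difference of -0.90 (SE 0.49, limma adjusted p = 0.475) was carried mostly by resistant 18, and without it the difference was -0.27. Over all genes tested, 11.1% had all 3 resistant libraries below all 3 controls, and 18.7% were lower in all 3 pools. The reverse orders held for 10.1% and 18.9% of all genes and for none of the hosts.

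In pool 18 most hosts were much lower in the resistant library. Resistant 18 was the lowest of the 6 libraries for 9 of the 10 hosts, against 25.3% of all genes tested. For 6 of them (GAS5, SNHG6, SNHG8, SNHG12, ZFAS1 and EPB41L4A-AS1) it lay over 1 log2 unit below each of the other 5 libraries, which held for 2.1% of all genes. Within pool 18, 7 of the 10 hosts differed by less than -1, against 7.24% of all genes. None was above 1, against 5.41%. The median was -1.53 for the hosts and 0.05 for all genes. In this pool 1 library stands on each side, so these differences have no replicate check and no test. They were also in view when the hosts were listed, so the counts describe the pattern and do not test it.

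SNHG12, which lies next to TRNAU1AP on chromosome 1 and hosts SNORA16A, SNORA44, SNORA61 and SNORD99, differed most in proportion. It had 10.4 FPKM in resistant 18 and 50.7 to 87.5 in the other 5 libraries, whose mean was 6.31-fold higher. EPB41L4A-AS1 had 15.7 FPKM in resistant 18 against 59.9 to 77.7 elsewhere, a 4.34-fold gap to the mean. Neither host had a value near that of resistant 18 in any other library.
ZFAS1 had 197 FPKM in resistant 18 against 710 to 907 in the others, 4.08-fold below their mean. SNHG6, the host of SNORD87 on chromosome 8, had 122 against 344 to 665, a 4.04-fold gap. The spread of ZFAS1 over the other 5 libraries was small beside its gap, at 806 ± 72.0 FPKM (SD, n = 5), whereas SNHG6 also varied among controls, with 631, 665 and 344 in controls 17, 18 and 28.
GAS5 had 361 FPKM in resistant 18 against 786 to 1308 in the others, a 2.96-fold gap to their mean. SNHG8, the host of SNORA24 on chromosome 4, had 151 against 308 to 537 (2.68-fold), and SNHG7, which hosts SNORA17 on chromosome 9, had 72.7 against 144 to 208 (2.39-fold). SNHG1 (1.85-fold) and SNHG5 (1.46-fold) had the smallest gaps among the 9 hosts. The 10 hosts together summed to 1353 FPKM in resistant 18 and to 3130 to 3976 in the other libraries.

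**Figure D2:**
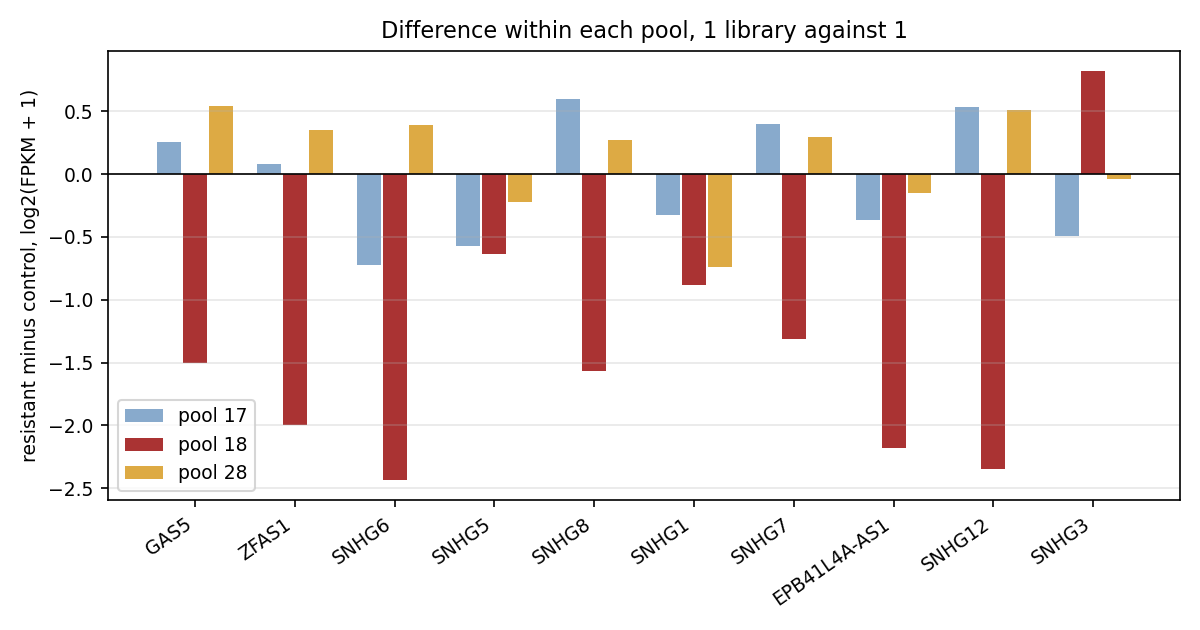
Difference between the resistant and the control library of each pool on the log2(FPKM + 1) scale, 1 library on each side, with hosts ordered by control level. In pool 18 the bars of 7 hosts pass -1, while in pools 17 and 28 all 10 lie between -0.74 and 0.60.

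In pools 17 and 28 the same hosts did not follow the pattern of pool 18. No host differed by more than 1 in either direction in these pools, where 1.72% and 4.02% of all genes were below -1 and 2.45% and 4.06% above 1. GAS5 was higher in resistant 17 (1308 against 1094 FPKM in control 17) and in resistant 28 (1143 against 786), with log2 differences of 0.26 and 0.54 against -1.50 in pool 18. SNHG12 was higher too, with 87.5 against 59.99 FPKM in pool 17 and 72.5 against 50.7 in pool 28. SNHG7, SNHG8 and ZFAS1 likewise had positive differences in both pools, from 0.08 to 0.60. Over the 3 controls and these 2 resistant libraries, the log2 difference was 0.35 for GAS5, 0.25 for SNHG7, 0.29 for SNHG8 and 0.19 for ZFAS1, with limma adjusted p of 0.3593 to 0.5035. Without resistant 18, SNHG12 had a log2 difference of 0.51 (SE 0.15), with the smallest adjusted p of any of the 10 hosts over all settings tried (limma adjusted p = 0.138), which did not pass.
SNHG6 was the host whose pools 17 and 28 went apart, with -0.72 and 0.39. Its difference over all libraries was -0.92 (SE 0.52, limma adjusted p = 0.491), without resistant 18 it was -0.34, and without both libraries of pool 18 it was -0.17. The medians of the 10 hosts were -0.12 in pool 17, -1.53 in pool 18 and 0.28 in pool 28. Each pool's median includes hosts on both sides of 0, with 5, 9 and 4 of the 10 below 0 in pools 17, 18 and 28.

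SNHG3 was the exception among the 10. It read 5.27, 3.17 and 5.12 FPKM across controls, then 3.46, 6.36 and 4.96 across resistant libraries, so that resistant 18 was the highest library and the groups overlapped (log2 difference 0.10, SE 0.25, limma adjusted p = 0.903). SNHG3 lies inside RCC1 on the same strand of chromosome 1 in GENCODE, and the authors' way of dividing reads between such genes is not given in the sources used here, so its level is uncertain. RCC1, the gene of a nuclear exchange factor for Ran, read 47.6, 32.6 and 24.0 FPKM across controls, then 48.9, 76.4 and 26.9 across resistant libraries. Both genes had their highest value in resistant 18.

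Other hosts share sequence with a gene on the opposite strand, and whether reads were assigned by strand is not given in the sources used here. In GENCODE the partners are ZNFX1 for ZFAS1, EPB41L4A for EPB41L4A-AS1, TRNAU1AP for SNHG12 and ZBTB37 for GAS5. TRNAU1AP was above SNHG12 in resistant 18 and below it in the other 5 libraries, and the remaining partners were far less abundant than their hosts in all 6. ZNFX1, which encodes an RNA helicase, had 10.6 to 12.8 FPKM in all 6 libraries and 12.2 in resistant 18. EPB41L4A had at most 0.30 FPKM in any library. TRNAU1AP, whose protein acts in selenocysteine insertion, had 30.6 FPKM in resistant 18 and 13.1 to 16.6 in the other 5, opposite to SNHG12. ZBTB37 had 1.27 FPKM in resistant 18 and 2.38 to 3.59 elsewhere. SLC3A2, which starts beside SNHG1 and encodes the heavy chain of amino acid transporters, had 190 FPKM in resistant 18 and 268 to 373 in the others. Among the 11 genes listed as overlapping or near a host, 8 were tested, 0 passed limma's adjusted threshold and 0 had an unadjusted p under 0.05.

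Most snoRNAs within these hosts had a smaller gap in resistant 18 than the host RNA, but so did most genes tested in pool 18, as given below. Sequences of 3 of them are printed as annotated in GENCODE v29 on GRCh38. For SNORD12C that annotation has 89 bases, against 79 in RefSeq. SNORD27 (chr11:62855012-62855083, minus strand) lies within SNHG1, SNORD12C (chr20:49278940-49279028, plus strand) within ZFAS1 and SNORA13 (chr5:112161485-112161617, plus strand) within EPB41L4A-AS1. They are written as DNA, and capitals mark TGATGA and CTGA, the letters of the C and D boxes, or ACA, the letters of the ACA box near the 3′ end.
SNORD27: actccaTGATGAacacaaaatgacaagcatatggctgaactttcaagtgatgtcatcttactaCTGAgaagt
SNORD12C: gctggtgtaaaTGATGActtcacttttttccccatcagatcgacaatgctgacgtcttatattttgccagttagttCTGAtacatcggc
SNORA13: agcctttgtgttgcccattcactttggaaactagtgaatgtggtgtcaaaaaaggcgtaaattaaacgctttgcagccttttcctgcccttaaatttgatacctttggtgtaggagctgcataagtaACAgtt

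Within the spans of the 10 hosts RefSeq places 36 snoRNA genes, of which the files hold 32, and 27 of these were above 0 in all 6 libraries. Resistant 18 was the lowest library for 3 of the 27, against 25.3% of all genes tested. Its value divided by the mean of the other 5 libraries had a median of 0.820 over the 27 snoRNAs and ran from 0.368 to 1.96. It was above the same ratio of the host for 24 of the 27. That count is not particular to snoRNAs. By the pool 18 difference, only 0.867% to 15.5% of all genes tested lay below any 1 of the 9 hosts that were lowest in resistant 18. Within pool 18 itself 22 of the 27 were lower in the resistant library, with a median of -0.61, and in pool 28, where most hosts were higher, 18 were lower, with a median of -0.51. In pool 17, 9 were lower and the median was 0.16. Over all genes tested the medians were -0.03, 0.05 and -0.01 in pools 17, 18 and 28. The share of all genes lower within a single pool was not counted. Keeping only snoRNAs above 0 in all 6 libraries bears on these counts, because a snoRNA at 0 in resistant 18 could not enter. Of the 5 left out, 3 were at 0 in resistant 18, and all 3 were also at 0 in another library: SNORD81, SNORD87 and SNORA43. In ZFAS1, whose ratio was 0.245, SNORD12C had 11036 FPKM in resistant 18 and 4083 to 10204 in the others. SNORD12 and SNORD12B were likewise at their highest in resistant 18. In GAS5, SNORD76 had 119701 FPKM in resistant 18 and 58152 to 164177 elsewhere, whereas SNORD44 had 23617 against 24714 to 44537. SNORD27 in SNHG1 had 260532 FPKM in resistant 18 and 141526 to 448004 elsewhere.
These snoRNA values carry much more noise than the host values. RefSeq gives them 60 to 134 bases, far shorter than a sequencing fragment, so that dividing by length inflates FPKM. Their highest control was a median of 2.15 times the lowest. Column kits of the type named in the labels also recover small RNA poorly. Of the 30 that passed the filter, 0 passed limma's adjusted threshold and 3 had an unadjusted p under 0.05. Whether the smaller gaps of the snoRNAs reflect how such RNA was recovered was not tested.

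**Figure D3:**
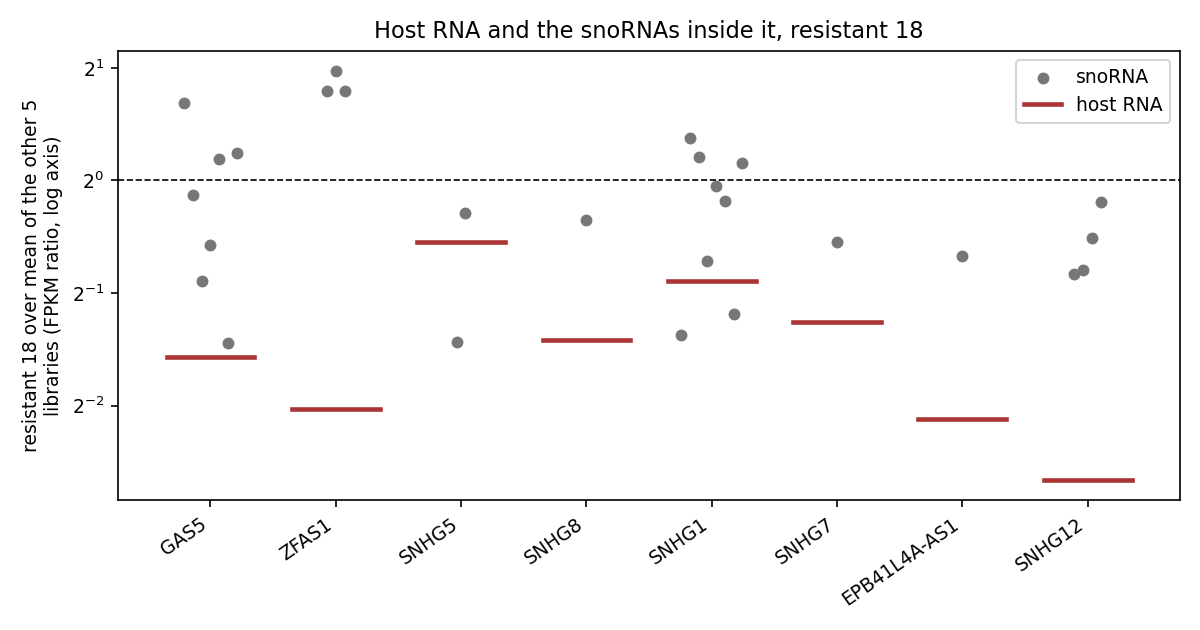
Ratio of the FPKM in resistant 18 to the mean of the other 5 libraries (log axis, dashed line at 1) for each host (red bar) and for the snoRNAs inside it that were above 0 in all 6 libraries (grey points). The point lies above the host's bar for 24 of 27 snoRNAs. By the pool 18 difference, most genes tested also lay above each of the hosts that were lowest in resistant 18.

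For other snoRNA hosts, values in resistant 18 are read against all genes tested, for which it was the lowest library in 25.3% and the highest in 35.4%. The files hold 7 of 11 further non-coding hosts that were listed. SNHG10 and SNHG9 are named by the rule of smallest p in each list, and the other hosts and factors named below without a p were chosen after their values were seen. SNHG9, the host of SNORA78 on chromosome 16, had 2.43 FPKM in resistant 18 and 14.6 to 18.2 in the others. SNHG11 had 5.36 against 10.1 to 14.0. SNHG15, SNHG16 and DANCR were at least as abundant as SNHG12 in controls, and none of them was lowest in resistant 18.
SNHG16, which hosts SNORD1A, SNORD1B and SNORD1C, had 130 FPKM there and 105 to 132 in the others. DANCR, the host of SNORA26, had 131 FPKM in resistant 18 and 54.97 to 79.2 elsewhere. SNHG10 differed by 0.43 over the 3 pools (limma adjusted p = 0.444) and SNHG9 by -0.77 (0.632), with 0.16, -2.47 and 0.01 in pools 17, 18 and 28, so that the SNHG9 value lies in pool 18. Of these 7 genes 0 passed limma's adjusted threshold, 0 had an unadjusted p under 0.05, 2 had resistant 18 as the lowest library and 3 as the highest, and the median difference in pool 18 was 0.16.

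Protein-coding hosts, most of them genes of ribosomal proteins and translation factors, lay between these groups. Of 35 such genes 18 had resistant 18 as the lowest library and 9 as the highest. In pool 18, 7 differed by less than -1, against 7.24% of all genes. Their medians were -0.18, -0.59 and 0.00 in pools 17, 18 and 28, and -0.26 over the pools. RPL21, a ribosomal protein gene, had 335 FPKM in resistant 18 and 2229 to 3522 elsewhere, and RPS12 had 880 against 2593 to 3227. The chaperone gene HSPA8 went the other way, with 1092 FPKM against 283 to 659. Over the 3 pools 0 of the 35 passed limma's adjusted threshold. At an unadjusted p under 0.05, 4 were lower and 2 higher, against 7.14% and 5.99% of all genes. The ribosome biogenesis gene PPAN differed by 0.99 (SE 0.24) and PABPC4, which encodes a poly(A)-binding protein, by -0.76 (SE 0.18), both with a limma adjusted p of 0.197. The 10 hosts, the further hosts and the protein-coding hosts were compared only as counts and medians, without a test between lists.

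**Figure D4:**
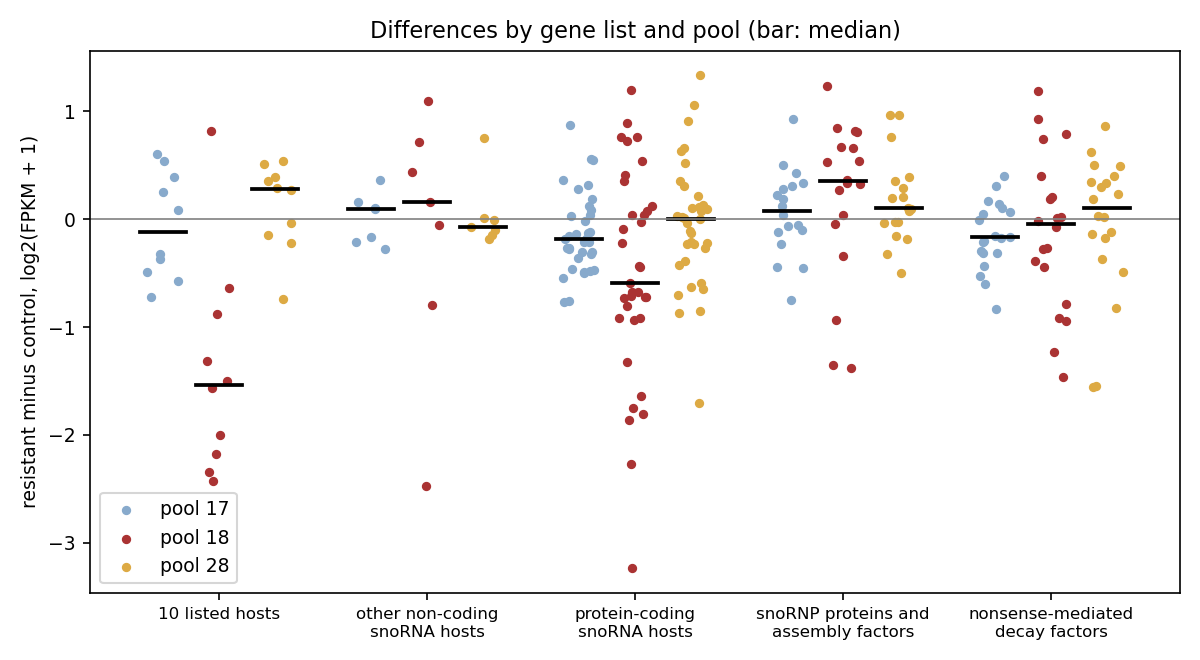
Differences between resistant and control libraries on the log2(FPKM + 1) scale for each tested gene of 5 lists, by pool, with a black bar at the median; points are spread sideways at random. In pool 18 the median is -1.53 for the 10 hosts and -0.59 for protein-coding hosts, while the further non-coding hosts have 0.16.

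The proteins that bind and assemble snoRNAs had medians in pool 18 of 0.16 (box C/D), -0.20 (box H/ACA) and 0.51 (assembly factors). Among the box C/D proteins, FBL, the methyltransferase, had 246 FPKM in resistant 18 and 203 to 326 in the others, and NOP58 had 67.4 against 43.1 to 52.4. Of these 4 tested genes 0 passed limma's adjusted threshold and 0 had an unadjusted p under 0.05 (NHP2L1, -0.14, and NOP58, 0.12). Among the 4 box H/ACA proteins 0 passed, with 1 lower and 1 higher at an unadjusted p under 0.05, against 7.14% and 5.99% of all genes.
GAR1 read 3.75, 3.94 and 3.70 FPKM across controls, then 8.06, 6.88 and 8.17 across resistant libraries, above all controls (0.86, limma adjusted p = 0.158). NOP10 read 178, 185 and 161 FPKM across controls, then 106, 70.8 and 129 across resistant libraries, below all controls (-0.82, limma adjusted p = 0.249). Of all genes tested, 10.1% had all resistant libraries above all controls and 11.1% had them below.
Of 10 assembly factors 6 were higher in all 3 pools and 2 lower, with a median of 0.27 and 0 passing limma's adjusted threshold. Over all genes tested 18.9% were higher and 18.7% lower in all 3 pools. At an unadjusted p under 0.05, 2 were higher, NOLC1, a nucleolar chaperone (0.53, limma adjusted p = 0.266), and ZNHIT6, a factor of box C/D assembly (0.51, 0.289). Of all genes tested, 5.99% were higher at that p.

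The factors of nonsense-mediated decay, which removes spliced RNA of many non-coding hosts, had a median difference of 0.00 over 20 tested genes. None passed limma's adjusted threshold, and 3 were lower at an unadjusted p under 0.05, against 7.14% of all genes. SMG1, the kinase that phosphorylates UPF1, read 7.65, 8.95 and 12.4 FPKM across controls, then 3.85, 4.17 and 3.60 across resistant libraries (-1.11, SE 0.20, limma adjusted p = 0.158). Its groups did not overlap, and the resistant library was lower in all 3 pools. Of all genes tested, 11.1% had all resistant libraries below all controls and 18.7% were lower in all 3 pools. Of the 20 factors, 6 were lower and 3 higher in all 3 pools. UPF1, the central helicase, had 28.9 FPKM in resistant 18 and 21.6 to 29.1 elsewhere. In pool 18 the median over the 20 genes was -0.04.
Regulators of TOP RNA translation had 0 of 10 genes passing, with 3 lower at an unadjusted p under 0.05, against 7.14% of all genes. LARP1, which binds the TOP start, read 31.1, 35.2 and 49.5 FPKM across controls, then 19.4, 20.7 and 22.8 across resistant libraries (-0.83, limma adjusted p = 0.197), and EIF4EBP2, a translation repressor, differed by -0.78 (0.333). The median of this list in pool 18 was -0.27.

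The same promoter letters were counted in the tested genes other than the 10 hosts. Of 198 tested genes with TATAA in the window given above 13.1% differed by less than -1 in pool 18, against 5.47% of 7936 without it. Of 453 with a first base C and at least 4 pyrimidines after it 12.6% did, and of 7497 with neither 5.10%. Only 14 genes held both, 5 of them under -1. The median in pool 18 was -0.01 with TATAA and 0.09 without it. It was -0.03 with the pyrimidine start, 0.10 with neither and -0.51 with both. Shares above 1 were not counted, so whether these genes also spread upwards was not tested. These shares and medians describe genes in 1 pair of libraries and were not tested, and a match is not a site.

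The genes whose levels were most like the hosts over the 6 libraries were found by Pearson r on the log2(FPKM + 1) scale, among 8155 other genes whose mean reached 5 FPKM. Nearest to the mean profile of the 10 hosts were DBP (r = 0.998), RPS12 (0.997), SPSB3 (0.995), TAPBP (0.994) and AKNA (0.993). DBP, a transcription factor gene, had 3.04 FPKM in resistant 18 and 14.1 to 17.7 in the others. Nearest to GAS5 alone were BAD (r = 0.9995), NME3 (0.997), RPL36A (0.997), CD79A (0.996) and LINC00839 (0.995). BAD, which encodes a pro-apoptotic protein of the BCL2 family, had 39.7 FPKM in resistant 18 and 65.9 to 92.6 elsewhere. All 10 of these genes have their lowest value in resistant 18, as 9 of the hosts do. This follows from the choice, because they were picked for likeness to profiles that are lowest there. With 6 libraries the values are a description. Among the hosts, EPB41L4A-AS1 (0.992) and ZFAS1 (0.976) were nearest to the mean profile they are part of, and SNHG3 ran against it (-0.581).

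Features of the libraries were set beside the difference in pool 18. Relative depth, read from the steps of low FPKM, ran from 1 in control 17 to 1.31 in resistant 28 and was 1.08 in resistant 18. Between 10936 and 11331 genes reached 1 FPKM per library. Transcripts of higher GC content were lower in resistant 18: over 10189 genes the pool 18 difference correlated with GC content at a Pearson r of -0.244, and its median ran from 0.28 at under 40% GC to -0.26 at 60% or more. The 10 hosts had a median transcript GC content of 42.1% to 59.9%, and 9 of them fell in GC classes whose median in pool 18 was above 0 (0.03 to 0.21). The part of GC content in the hosts' values was not tested. Transcript length hardly moved with that difference (r = 0.030). Of the 10 hosts 4 lay in the class of 500 to 750 nt, where the median was 0.07 and 6.73% of 2349 genes were under -1. SNHG8 lay in the class of 250 to 500 nt, where 21.1% of 166 genes were. Scaling to equal medians would divide resistant 18 by 1.07 and the other libraries by 0.960 to 0.998, which lowers resistant 18 further. B cell markers were present in every library, among them MS4A1 at 92.4 to 196 FPKM, CD79A at 212 to 394 FPKM and PAX5 at 12.7 to 17.6 FPKM, whereas 4 T cell markers summed to at most 0.624 FPKM and EPCAM, HBB and HBA1 were at 0 in all 6.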

How the data were processed

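Each file deposited by the authors holds FPKM with decimal commas, 1 value for each of 23619 symbols, per the file headers. The submitters' processing notes name hg19 as the build, and list among the tools DESeq2, HTSeq 0.6.1, Cufflinks 2.2.1 and TopHat2 2.0.4, without saying what each did. The sources used here give no annotation, strandedness or read length. Groups came from the labels.

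Genes with at least 1 FPKM in at least 3 of 6 libraries were tested on log2(FPKM + 1), where differences of low genes are understated, with limma 3.58.1 in R 4.3.3 (trend, two-sided, Benjamini-Hochberg over 11307 genes). The script was tested on simulated data with less spread than these libraries and with changes larger than any host's difference over the 3 pools. That test does not show whether differences of the hosts' size would be called. Because nothing says the pools were separate cultures from the start, p-values measure only the spread between these samples. Intervals were not computed, since FPKM hold no counts and only relative depth could be read. The hosts and gene lists were chosen with earlier results of these data known. From each list the genes passing the threshold, or otherwise the 2 of smallest p, were named, with exceptions stated; some listed genes are not reported here. Sequences, snoRNA positions and GC content came from RefSeq and GENCODE v29 on GRCh38. Alternatives were another pseudocount, filter or scaling, array weights, the pool number as a block, and each library or pool left out.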

Additional observations from a re-analysis of the deposited data

How the results depend on the processing

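No host passed limma's adjusted threshold under any of the 17 alternatives, with a smallest adjusted p of 0.138 for SNHG12 without resistant 18. The median difference of the 10 hosts, -0.46, turned positive under array weights (0.0387), where resistant 18 weighed 0.162 and the others 1.03 to 1.93, without resistant 18 (0.0585) and without both libraries of pool 18 (0.0258). It ran from -0.7053 to 0.0585 with 1 library left out and from -0.7273 to 0.0258 with 1 pool left out. Array weights turned the differences of GAS5 (0.266), SNHG7 (0.1688), SNHG8 (0.1931), SNHG12 (0.3894) and ZFAS1 (0.0741) positive. With 1 library or 1 pool left out, differences ran from -0.623 to 0.3984 for GAS5, -0.264 to 0.3908 for SNHG3, -0.5104 to 0.3442 for SNHG7, -0.6458 to 0.4368 for SNHG8, -0.9717 to 0.5232 for SNHG12 and -0.9572 to 0.2181 for ZFAS1. SNHG1 (-0.8088 to -0.4496), SNHG5 (-0.6042 to -0.3763), SNHG6 (-1.5771 to -0.1665) and EPB41L4A-AS1 (-1.2731 to -0.2584) were below 0 in every alternative, the last 2 moving from -0.92 and -0.90 to their highest values without pool 18. Of all genes 4 passed, 301 under array weights, 3 to 13 with 1 library left out (13 without resistant 18, 8 without resistant 17) and 4 to 18 with 1 pool left out (18 without pool 18). With the pool number as a replicate block 3 genes and 0 hosts passed and the hosts' median was -0.46. Deviations of same-numbered libraries from their group means correlated at 0.149, 0.0892 and -0.0243 for pools 17, 18 and 28, and 2 of 6 libraries correlated best with their own number. The numbers were therefore not taken as pairs, and the block changed no call on a host. With 3 libraries a group, the SE of the host differences ran from 0.20 to 0.72.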
